A study of Mus musculus with 16 samples.

Results

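The genes described here encode 6 transcription factors of the fate of type 1 conventional dendritic cells (cDC1s), namely Irf8, Batf3, Id2, Zbtb46, Nfil3 and Bcl6. They were chosen by symbol, not by their values, as the rows of the count table whose Ensembl mouse gene identifiers map to these names, and they make up 6 of the 32697 genes in the table. All 6 had a row and passed the filter on low counts.

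RNA was sequenced in bulk from 16 libraries of cDC1s sorted from tumours of the mouse melanoma line YUMM1.7. The genotype labels gave 4 groups of 4 libraries. In the Ikbkb set of 8 libraries, IKKbdeltaXCR1 mice carried a deletion of Ikbkb, which encodes the kinase IKKβ of the NF-κB pathway, and IKKbFF mice carried the floxed gene. In the Irf1 set of 8 libraries, IRF1deltaXCR1 mice carried a deletion of Irf1, which encodes an interferon regulatory factor, and IRF1FF mice carried the floxed gene. By its name the deletion was driven from Xcr1, a chemokine receptor gene of cDC1s, so that it would act in cells that have turned this gene on. All mice bore the same tumour line with no other treatment, and the labels gave no age. The growth notes name only the female Ikbkb mice, so the groups of the Irf1 set rest on the genotype label alone. The labels do not say whether libraries came from separate animals, and p-values therefore measure the spread between these libraries, which may be technical.

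cDC1s take up dead cells and present their antigens to CD8 T cells, and their development rests on a small circuit of transcription factors. IRF8, an interferon regulatory factor, pairs with the AP-1 family factor BATF3 in committed precursors and keeps its own gene on. Around this pair stand NFIL3 and ID2, which act early in commitment, ZBTB46, a zinc finger factor that marks classical dendritic cells, and BCL6, a zinc finger repressor.

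Total counts ran between 16478671 and 27433818 per library. Xcr1, the gene that names the deletions, was detected in all 16 libraries at 12.1 to 318 CPM (counts relative to the TMM-scaled library total), and Clec9a, a receptor of cDC1s for dead cells, at 0.603 to 67.6 CPM. Markers of other cells were present as well: the 9 fibroblast markers summed to 11540 to 31323 CPM in the Irf1 set and to 6344 to 12105 CPM in the Ikbkb set, and the 14 macrophage and monocyte markers to 3901 to 17680 CPM. The median sum over the 16 libraries was 11822 CPM for fibroblast and 9360 CPM for macrophage and monocyte markers, against 1374 CPM for 13 cDC1 markers. Sums of different genes do not measure shares of cells. The 8 melanoma markers summed to 2.55 to 16.9 CPM: Dct, Tyr, Tyrp1 and Mlana were each at 0 in 15 of 16 libraries, Sox10 in 7 and Pmel and S100b in 4, and Mitf was detected in all at 1.43 to 16.4 CPM. Ikbkb itself lay at 28.5 to 46.3 CPM in Ikbkb-deleted libraries, against 44.5 to 121 CPM in Ikbkb floxed libraries, a log2 fold change of -0.79 with an adjusted p of 0.988 by edgeR. The library labelled Ikbkb-deleted replicate 1, at 46.3 CPM, was above 2 Ikbkb floxed libraries at 44.5 and 45.1 CPM. The library labelled Irf1-deleted replicate 1 had 299 CPM of Irf1, above all 4 Irf1 floxed libraries at 141 to 268 CPM, while the other 3 Irf1-deleted libraries had 98.6 to 145 CPM. The log2 fold change of Irf1 was -0.26, with an adjusted p of 1 by edgeR, and the groups overlapped for both targeted genes. A library of mixed RNA cannot separate fewer cells of a type from less RNA per cell, and this holds for every level below.

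Irf8, Batf3, Id2 and Zbtb46 varied together over the libraries, so the sequence around RefSeq start sites of the first 3 is shown. Each window is 250 bases before to 50 bases after a RefSeq transcript start in build GRCm38.p6, printed 5′ to 3′ on the gene's strand, with capitals at matches to the searched motifs other than the E-box. The windows are chr8:120736108-120736407 on the plus strand for Irf8, chr1:191098164-191098463 on the plus strand for Batf3 and chr12:25096043-25096342 on the minus strand for Id2. The RefSeq start of Irf8 is also the 5′ end of the gene in GENCODE M21, while those of Batf3 and Id2 lie 567 and 1048 bases inside the gene as GENCODE bounds it. The RefSeq start used for Zbtb46 lies 35038 bases inside its gene, so its window is not a region ahead of the gene and is not printed.
Irf8: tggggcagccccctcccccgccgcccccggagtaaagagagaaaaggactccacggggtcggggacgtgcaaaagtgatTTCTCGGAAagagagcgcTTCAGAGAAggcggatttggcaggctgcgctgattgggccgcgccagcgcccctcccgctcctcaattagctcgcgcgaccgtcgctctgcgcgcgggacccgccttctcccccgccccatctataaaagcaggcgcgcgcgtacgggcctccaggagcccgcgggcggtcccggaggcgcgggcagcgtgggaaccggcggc
Batf3: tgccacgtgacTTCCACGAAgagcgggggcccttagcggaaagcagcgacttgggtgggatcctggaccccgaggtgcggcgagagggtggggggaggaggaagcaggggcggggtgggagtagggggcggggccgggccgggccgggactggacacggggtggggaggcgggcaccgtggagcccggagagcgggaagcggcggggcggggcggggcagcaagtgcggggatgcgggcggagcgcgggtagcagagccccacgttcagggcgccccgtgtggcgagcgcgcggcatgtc
Id2: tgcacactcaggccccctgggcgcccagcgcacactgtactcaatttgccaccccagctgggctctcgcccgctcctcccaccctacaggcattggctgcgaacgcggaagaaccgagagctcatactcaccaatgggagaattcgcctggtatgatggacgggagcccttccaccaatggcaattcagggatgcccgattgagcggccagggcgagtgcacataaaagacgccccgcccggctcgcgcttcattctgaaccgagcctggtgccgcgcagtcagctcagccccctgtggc

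The motifs were searched on both strands, with overlapping matches counted, in all 8 RefSeq windows of the 6 genes and in 32851 windows of all genes. The gamma-interferon-activated (GAS) letters TTCNNNGAA, the binding sequence of STAT proteins, were present in 8.3% of all windows. Irf8 held 2 such matches in its first window, TTCTCGGAA and TTCAGAGAA, beginning 171 and 153 bases before the start. Batf3 held TTCCACGAA at 239 bases before the start, and both windows of Bcl6 held matches. The letters were thus in 4 of the 8 windows, which belong to 3 of the 6 genes. The AP-1 letters TGANTCA, bound by dimers such as those of BATF3 and JUN, were present in 7.81% of all windows and, among the 6 genes, in Zbtb46, as TGACTCA 61 bases before that start inside the gene. The composite PU.1 and IRF letters, GGAA and GAAA parted by 2 bases of any kind and present in 2.72% of all windows, occurred in the second window of Bcl6, whose start lies 7569 bases inside the gene. No window of the 6 genes held the interferon response core, GAAA 2 times with 2 bases between (3.44% of all windows), the NFIL3 letters TTANNTAA (6% of all windows) or the κB consensus (8.46% of all windows). The E-box letters CANNTG, bound by the E proteins that ID2 holds back, occurred in 6 of the 8 windows, near the 72.3% of all windows. Each of the 6 genes had at least 1 such window. These are matches of letters, and no binding was measured.

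Irf8 (ENSMUSG00000041515, mm10 chr8:120736358-120756694, plus strand) encodes the interferon regulatory factor on which cDC1 identity depends. It was at 2268, 744, 379 and 394 CPM in Ikbkb-deleted libraries, and at 545, 376, 2511 and 278 CPM in Ikbkb floxed libraries. Its levels were 886, 178, 357 and 437 CPM in Irf1-deleted libraries, and 405, 586, 163 and 527 CPM in Irf1 floxed libraries. The library labelled Ikbkb-deleted replicate 1 and Ikbkb floxed replicate 3 stood far above the rest, and the groups overlapped in both comparisons. The highest library held 15.4 times the level of the lowest.

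Batf3 (ENSMUSG00000026630, chr1:191097847-191108945, plus strand) encodes the AP-1 partner of IRF8. It was at 41.7, 17.4, 7.59 and 8.67 CPM in Ikbkb-deleted libraries, against 14.2, 9.28, 57.5 and 7.60 CPM in Ikbkb floxed libraries. Irf1-deleted libraries had 18.3, 4.93, 8.34 and 16.7 CPM, against 6.24, 12.0, 2.41 and 21.2 CPM in Irf1 floxed libraries. The same libraries as for Irf8 were highest, the lowest was Irf1 floxed replicate 3 with 60 counts, and all groups overlapped. This was the widest span of the 6 genes, with 23.9-fold between the extremes.

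Id2 (ENSMUSG00000020644, chr12:25093799-25097140, minus strand) encodes the inhibitor that binds E proteins and keeps them from DNA. Its levels were 915, 450, 270 and 210 CPM in Ikbkb-deleted libraries, against 338, 263, 1148 and 206 CPM in Ikbkb floxed libraries. They were 309, 119, 164 and 200 CPM in Irf1-deleted libraries, against 173, 212, 108 and 277 CPM in Irf1 floxed libraries. The libraries high for Irf8 were again the highest, and the highest library of the Irf1 set had 309 CPM.

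Zbtb46 (ENSMUSG00000027583, chr2:181387762-181459426, minus strand), the zinc finger gene of classical dendritic cells, was at 156, 45.6, 22.8 and 24.5 CPM in Ikbkb-deleted libraries and at 65.7, 32.5, 173 and 14.3 CPM in Ikbkb floxed libraries. It was at 59.4, 7.55, 28.4 and 20.5 CPM in Irf1-deleted libraries and at 21.8, 47.7, 16.8 and 26.3 CPM in Irf1 floxed libraries. The span was 23.0-fold, and the groups overlapped.

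Nfil3 (ENSMUSG00000056749, chr13:52967209-52981073, minus strand) encodes a basic leucine zipper repressor needed for the cDC1 lineage. It was at 169, 109, 79.8 and 83.0 CPM in Ikbkb-deleted libraries, against 99.0, 72.6, 364 and 28.6 CPM in Ikbkb floxed libraries. It was at 31.6, 41.7, 44.6 and 25.9 CPM in Irf1-deleted libraries, against 35.8, 24.2, 47.3 and 59.3 CPM in Irf1 floxed libraries. Unlike the genes above, it separated the Ikbkb set from the Irf1 set: the Irf1 set spanned 24.2 to 59.3 CPM, and 7 of the 8 libraries of the Ikbkb set had 72.6 CPM or more, the exception being Ikbkb floxed replicate 4 with 28.6 CPM.

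Bcl6 (ENSMUSG00000022508, chr16:23965052-23988852, minus strand), the repressor gene, was at 42.5, 42.1, 29.3 and 10.2 CPM in Ikbkb-deleted libraries and at 22.0, 10.8, 68.5 and 10.02 CPM in Ikbkb floxed libraries. Irf1-deleted libraries had 27.98, 8.21, 21.6 and 17.7 CPM, and Irf1 floxed libraries 22.8, 28.1, 19.4 and 15.9 CPM. The span, 8.34-fold, was the narrowest of the 6 genes, and the groups overlapped.

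**Figure D1:**
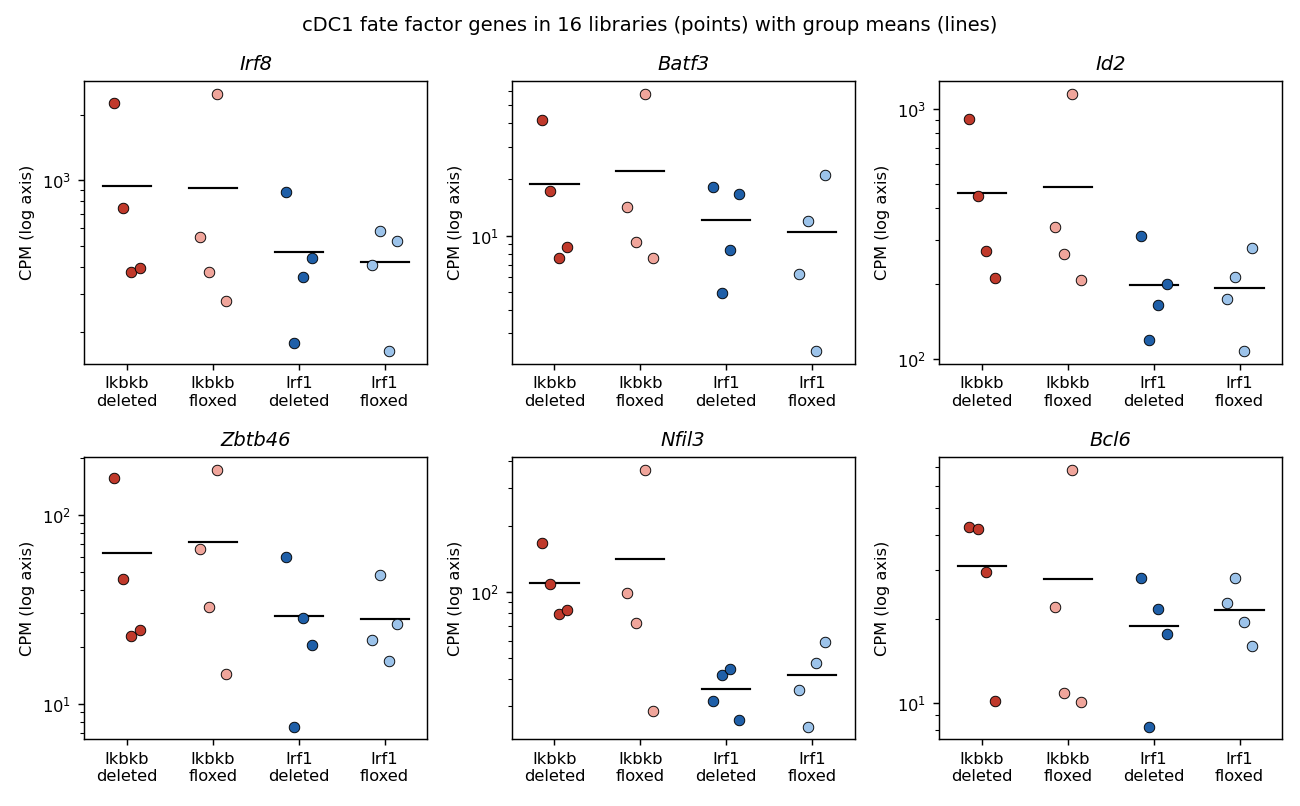
Level of each of the 6 genes (CPM, log axis) in the 16 libraries. Points are libraries and lines are group means. Irf8, Batf3, Id2, Zbtb46 and Bcl6 overlap between all groups, and the highest points of each are in the Ikbkb set, while Nfil3 is at or below 59.3 CPM in all 8 libraries of the Irf1 set.

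Per kilobase of exon, the order of the median level over the 16 libraries was Id2 at 97.5 CPM per kilobase, Irf8 at 59.7, Nfil3 at 26.3, Batf3 at 6.65, Bcl6 at 3.25 and Zbtb46 at 3.22. Id2 was above Irf8 in 16 of 16 libraries, Irf8 above Nfil3 in 15, Nfil3 above Batf3 in 16 and Batf3 above Bcl6 in 15. Bcl6 and Zbtb46 did not separate, since Bcl6 was the higher in 6 of 16 libraries. The gene for the partner BATF3 was below Irf8 in every library, with Irf8 at 5.62 to 15.3 times its level per kilobase. Within a library the ratio of Irf8 to Id2 varied least, by 2.13-fold over all 16, and that of Batf3 to Nfil3 varied most, by 12.7-fold.

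The first comparison asks whether loss of Ikbkb in cDC1s moves these factors. None of the 6 genes passed the test: log2 fold changes, Ikbkb-deleted over Ikbkb floxed, lay between -0.36 for Nfil3 and 0.16 for Bcl6, and the groups overlapped for all 6. Irf8 averaged 947 ± 897 CPM in Ikbkb-deleted libraries and 927 ± 1061 CPM in Ikbkb floxed libraries (SD, n = 4 each), a log2 fold change of 0.03 ± 0.73 (SE). It was -0.88 without the library labelled Ikbkb-deleted replicate 1 and 1.23 without Ikbkb floxed replicate 3, and its direction turned in 4 of 16 fits with 1 library left out and, to -0.01, with the size factors of DESeq2. Batf3 had a log2 fold change of -0.23 ± 0.76, Id2 of -0.08 ± 0.54 and Zbtb46 of -0.20 ± 0.76. For all 6 genes the adjusted p of edgeR's quasi-likelihood test with Benjamini-Hochberg adjustment over 16040 genes was 1, and exact two-sided permutation p-values ran between 0.629 and 0.971.
The background in this comparison was 0% of genes called (0 of 16040), with 769 genes, 4.79%, at an unadjusted p under 0.05, and with 38 genes (0.237%) called by DESeq2 and 0 by limma voom, none of them among the 6. Separation of the 2 groups with no overlap was seen for 1.7% of all genes. The intervals are wide: for Irf8 the 95% interval of the fold change ran from 0.350 to 2.98, and for Batf3 from 0.279 to 2.59, so a change of 2-fold in either direction was not detectable with this spread. The narrowest, that of Id2, still covered 0.424 to 2.10.

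The second comparison asks the same of Irf1. No gene of the 6 passed the test, with log2 fold changes, Irf1-deleted over Irf1 floxed, between -0.21 for Nfil3 and 0.21 for Batf3. Irf8 averaged 465 ± 301 CPM in Irf1-deleted libraries and 420 ± 187 CPM in Irf1 floxed libraries, a log2 fold change of 0.14 ± 0.73, and Id2 198 ± 81.1 CPM against 193 ± 71.1 CPM, a log2 fold change of 0.04 ± 0.54. Zbtb46 differed by 0.04 ± 0.76 and Bcl6 by -0.19 ± 0.58 on the log2 scale. All 6 had an adjusted p of 1 by edgeR, exact permutation p-values ran between 0.6 and 0.914, and the groups overlapped for every gene.
Here too 0% of genes were called, with 419 genes, 2.61%, at an unadjusted p under 0.05, 6 genes (0.0374%) called by DESeq2 and 0 by limma voom, none of them among the 6. Groups without overlap were seen for 2.89% of all genes. The 95% intervals of the fold change ran from 0.379 to 3.23 for Irf8 and from 0.461 to 2.29 for Id2. The library labelled Irf1-deleted replicate 1, in which Irf1 was not low, was also the highest of its group for Irf8, Batf3, Id2, Zbtb46 and Bcl6. Without it the log2 fold changes of Irf8, Id2 and Zbtb46 in this comparison were -0.37, -0.26 and -0.58, against values above 0 with it.

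The changes in the Irf1 set minus those in the Ikbkb set were also tested. On the log2 scale they were between -0.35 for Bcl6 and 0.44 for Batf3, and the adjusted p of edgeR was 1.00 for each of the 6 genes. In all genes 0% were called, with 455 (2.84%) at an unadjusted p under 0.05 and 12 (0.0748%) called by DESeq2.

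The level of these genes moved with markers of cDC1s. The summed CPM of 13 cDC1 markers, none of them among the 6 genes, was 6661, 1757, 1368 and 1009 in Ikbkb-deleted libraries and 1379, 996, 5627 and 768 in Ikbkb floxed libraries. In Irf1-deleted libraries it was 2977, 671, 1363 and 1438 CPM, and in Irf1 floxed libraries 1435, 1912, 640 and 1282 CPM. The libraries with most cDC1 marker RNA were those with most Irf8, Batf3 and Id2.
With the log2 cDC1 marker score as a covariate in the edgeR fit, the standard error of the Ikbkb change of Irf8 was 0.16, against 0.73 without it, and the log2 fold change was -0.16 with a 95% interval of -0.50 to 0.18. That of Id2 was -0.23 (-0.62 to 0.16), that of Zbtb46 -0.55 (-1.15 to 0.05) and that of Batf3 -0.39 (-1.27 to 0.50). For the Irf1 deletion, Irf8 had -0.16 (-0.50 to 0.18), Id2 -0.16 (-0.55 to 0.24), Zbtb46 -0.42 (-1.02 to 0.18) and Batf3 0.01 (-0.86 to 0.89). None of the 6 genes was called in either deletion in this fit, in which 0% of all genes were called. The marker score can itself change with a deletion, so these are values at an equal marker level and not per cell.

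**Figure D2:**
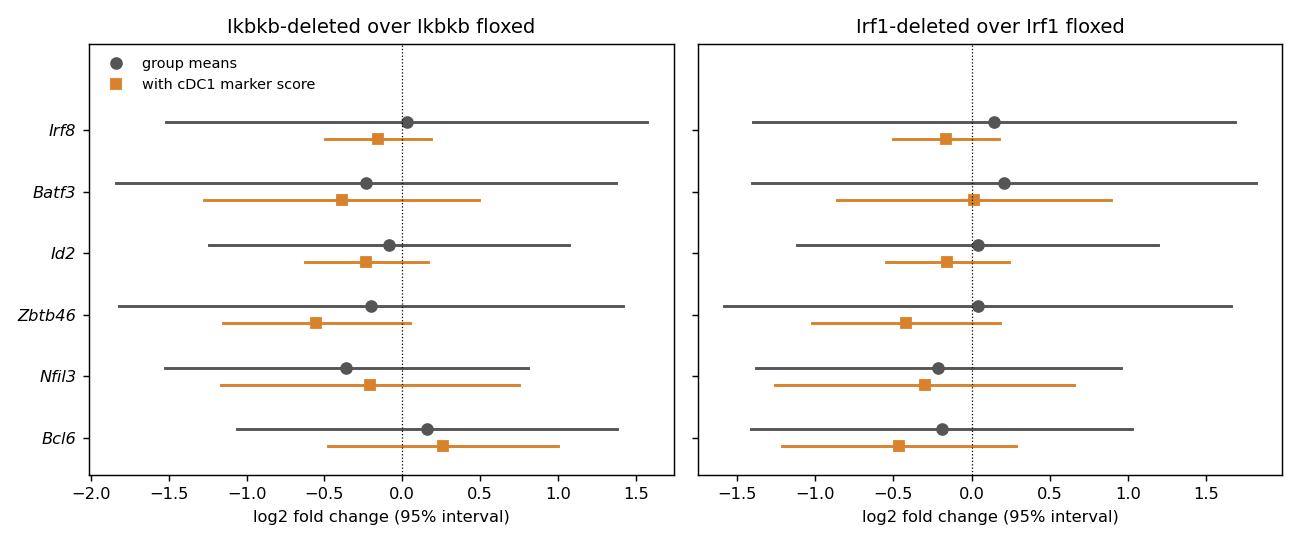
Log2 fold change of each gene with its 95% interval, Ikbkb-deleted over Ikbkb floxed on the left and Irf1-deleted over Irf1 floxed on the right. Grey circles are from group means and orange squares from the fit with the cDC1 marker score. Every interval covers 0, and for Irf8 it shrinks most with the score.

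**Figure D3:**
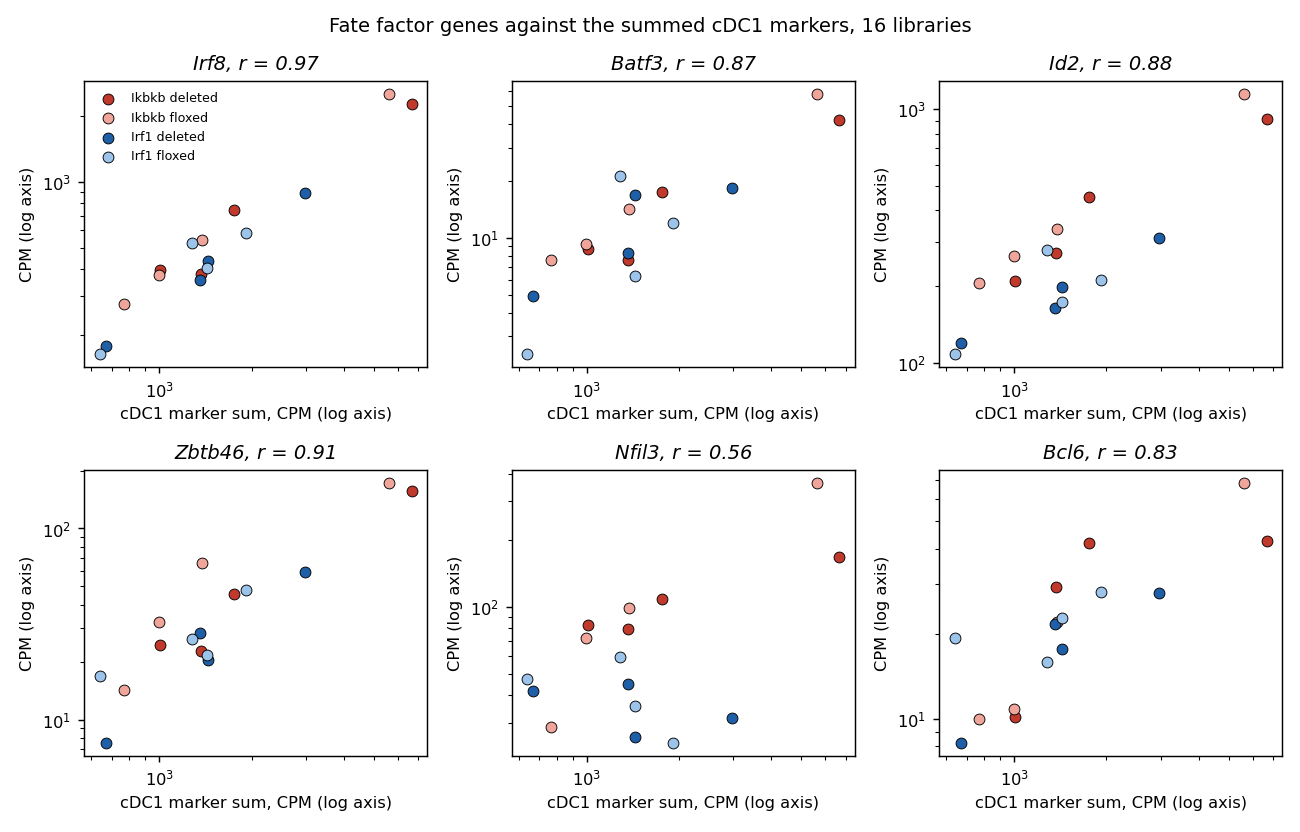
Each gene (CPM, log axis) against the summed CPM of 13 cDC1 markers (log axis) in 16 libraries, coloured by group, with Pearson's r in each title. Irf8 lies closest to a line (r = 0.97), and Nfil3 farthest from one (r = 0.56).

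Over the 16 libraries the correlation with the cDC1 marker sum was highest for Irf8, with a Pearson r of 0.97 (Spearman rho 0.93; permutation p = 1e-05 for each, the smallest the resamples can give), 0.92 without the 2 libraries farthest in Irf8, and 0.99 and 0.97 within the Ikbkb and Irf1 sets. Zbtb46 had 0.91 (rho 0.76), Id2 0.88 (rho 0.70), Batf3 0.87 (rho 0.74) and Bcl6 0.83 (rho 0.84). For Nfil3 the value was 0.56 (permutation p = 0.0245, adjusted p = 0.0549 over the 66 relations of 6 genes and 11 marker lists), with a rho of 0.21. Without the 2 libraries with most Nfil3 its r was -0.09. Within the Ikbkb set it was 0.87 (exact permutation p = 0.00141), and within the Irf1 set -0.54 (exact permutation p = 0.171).
Over all 16 libraries, markers of mature dendritic cells, such as Ccr7 and Cd83, followed Id2 and Nfil3 more closely than the cDC1 markers did. The Pearson r with their sum was 0.96 for Id2 (rho 0.90; permutation p = 1e-05) and 0.83 for Nfil3 (rho 0.74; permutation p = 0.00013), although for Nfil3 it was 0.91 within the Ikbkb set and -0.35 within the Irf1 set. Within the sets the values for Id2 were close. In the Ikbkb set they were 0.99 with the mature sum and 0.97 with the cDC1 sum, and in the Irf1 set 0.87 with each. Irf8 and Zbtb46 (r = 0.88 each), Batf3 (0.79) and Bcl6 (0.69) also passed the threshold with the mature sum. Within the Ikbkb and Irf1 sets Zbtb46 had 0.95 and 0.95 with that sum, against 0.93 and 0.89 with the cDC1 sum. For Irf8 the cDC1 sum was the closer in both sets, at 0.99 and 0.97 against 0.98 and 0.95. Batf3 was closer to the mature sum in the Ikbkb set only, and Bcl6 in the Irf1 set only. The difference between these correlations was not tested. Other lists passed the threshold as well: Id2 had an r of 0.71 with T and NK markers and 0.72 with B cell markers, and Nfil3 0.59 with cDC2 markers. Irf8, Batf3 and Nfil3 also passed with T and NK markers, and Irf8, Batf3 and Zbtb46 with B cell markers. No gene of the 6 correlated with the macrophage and monocyte sum past the threshold, with r between -0.43 and -0.10 (permutation test, adjusted p at least 0.183). Id2 was lower where fibroblast markers were higher, with an r of -0.73 (rho -0.82; permutation p = 0.00075), and where neutrophil markers were higher, with an r of -0.76 (rho -0.76; permutation p = 0.00019). Within the Ikbkb set these values for Id2 were -0.44 and -0.63 (exact permutation p = 0.268 and 0.0890), and within the Irf1 set -0.78 and -0.75 (0.0220 and 0.0413). Nfil3 had -0.60 with fibroblast markers (rho -0.66; permutation p = 0.0135) and -0.69 with neutrophil markers (rho -0.69; permutation p = 0.00248), and these were 0.09 and 0.28 within the Irf1 set. By Pearson's r Batf3 also passed with fibroblast (-0.62) and neutrophil markers (-0.61), and Irf8 with neutrophil markers (-0.58). In all, 27 of the 66 relations passed an adjusted p of 0.05 by Pearson's r and 18 by Spearman's rho.

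Among themselves the 6 genes gave 15 pairs, and all 15 correlated over the 16 libraries at an adjusted permutation p under 0.05 by Pearson's r of log2 CPM. Spearman's rho gave 10. The share of all gene pairs that would pass was not computed. The points share the library and its scaling, and 2 libraries, Ikbkb-deleted replicate 1 and Ikbkb floxed replicate 3, lie at the top of most plots; without both, 8 pairs passed.
Of the 6 genes, Irf8, Batf3, Id2 and Zbtb46 formed the tightest group, but many other genes followed them as closely. Among 9474 genes ranked by r with Irf8, Id2 had rank 30, Batf3 40, Zbtb46 43 and Nfil3 810. By r with Id2, Irf8 had rank 35, Batf3 127 and Zbtb46 164. Irf8 with Id2 had a Pearson r of 0.95 (rho 0.85), Irf8 with Batf3 0.94 (rho 0.89), Irf8 with Zbtb46 0.94 (rho 0.84), Batf3 with Id2 0.91 (rho 0.84), Id2 with Zbtb46 0.90 (rho 0.84) and Batf3 with Zbtb46 0.83 (rho 0.79), with permutation p-values of 0.0001 or less for r. Leaving out the 2 libraries farthest in the first gene of each pair, r was 0.75 to 0.88. Without Ikbkb-deleted replicate 1 and Ikbkb floxed replicate 3 it was 0.64, for Batf3 with Zbtb46, to 0.88. Within the Ikbkb set these 6 pairs had r of 0.95 to 0.99, and within the Irf1 set 0.60 to 0.96, the lowest being Batf3 with Zbtb46 (exact permutation p = 0.112). Centred on group means, Irf8 with Id2 had an r of 0.98.
Bcl6 correlated with Zbtb46 at 0.80 (rho 0.71), with Irf8 at 0.79 (rho 0.75), with Id2 at 0.73 (rho 0.66) and with Batf3 at 0.64 (rho 0.51). Bcl6 and Zbtb46 held this relation within both sets, with r of 0.79 in the Ikbkb set and 0.90 in the Irf1 set (exact permutation p = 0.0240 and 0.00315).
Nfil3 stood apart. Over all 16 libraries its r with the other 5 genes lay between 0.55 and 0.80, and within the Ikbkb set between 0.83 and 0.91. Within the Irf1 set the same correlations lay between -0.42 and -0.23 (exact permutation p = 0.299 to 0.578), so none of them held there. Nfil3 with Irf8 had an r of 0.65 over all 16 libraries (rho 0.36), and 0.13 without Ikbkb-deleted replicate 1 and Ikbkb floxed replicate 3. Within the Ikbkb set this pair had an r of 0.90 (exact permutation p = 2.48e-05), and within the Irf1 set -0.42 (exact permutation p = 0.299). The difference in correlation between the 2 sets was not tested.

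**Figure D4:**
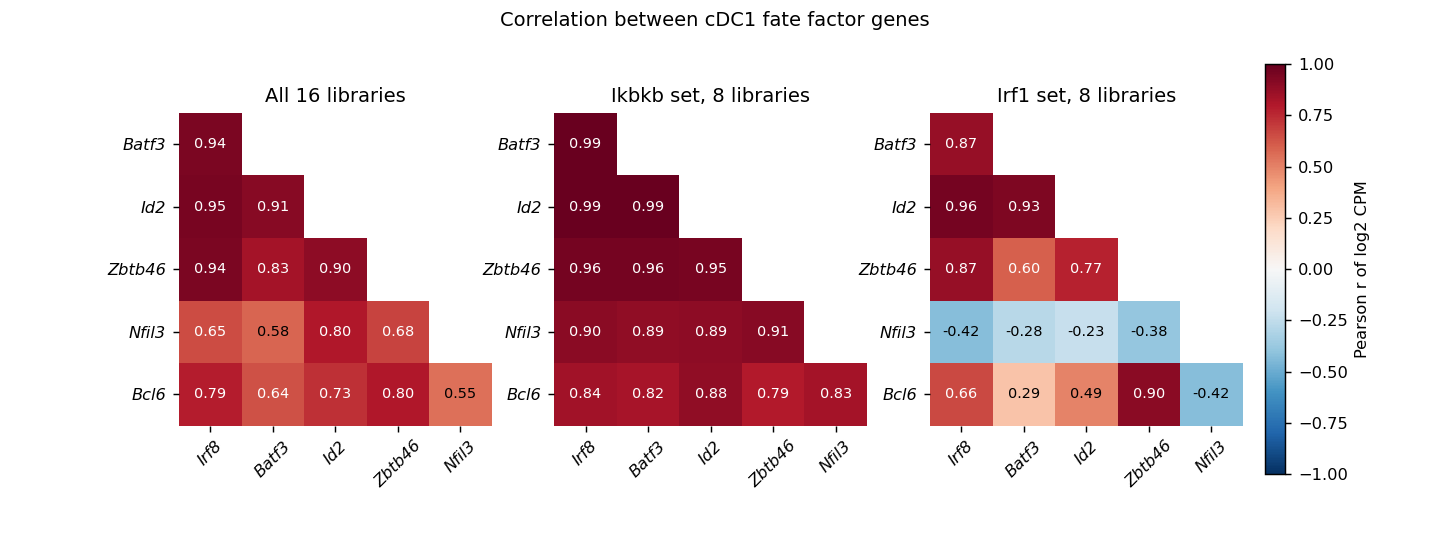
Pearson's r of log2 CPM for the 15 pairs of genes over all 16 libraries (left), the 8 libraries of the Ikbkb set (middle) and the 8 of the Irf1 set (right), from blue at -1 to red at 1. The row and column of Nfil3 are red in the Ikbkb set and blue in the Irf1 set, while Irf8, Batf3, Id2 and Zbtb46 stay red in both.

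The 2 sets differ in floxed strain and may differ in experiment, which cannot be told apart, and so a comparison across them compares sets of libraries. Over the 4 groups at once, 1 of the 6 genes differed, where 14.1% of all genes were called. This was Nfil3, with an adjusted p of 0.0428 by edgeR, while Id2 had 0.147 and the other 4 genes 0.431 to 0.788. The call lay near the threshold. Nfil3 was also called by edgeR with RLE or upper-quartile scaling, without a filter and with a filter of 5 CPM (adjusted p = 0.0258 to 0.0450). DESeq2 (adjusted p = 0.00158) and limma voom (0.0277) called it too, and these fits called 5.21% to 26.6% of all genes. With 1 library left out, the edgeR call held without Ikbkb floxed replicate 2, 3 or 4 or Irf1 floxed replicate 4, with adjusted p-values by edgeR of 0.0118 to 0.0452. It was lost without any of the other 12, at 0.0535 to 0.0854, in fits whose share of all genes called is not given here. It was also lost without Ikbkb-deleted replicate 1 and Ikbkb floxed replicate 3 together (adjusted p = 0.0573 by edgeR), with the cDC1 marker score as a covariate (0.119) and with a score of T and NK cell markers (0.447), fits in which 15.3%, 18% and 10.1% of all genes were called. In the fit with the cDC1 marker score Id2 was called in place of Nfil3 (adjusted p = 0.00834 by edgeR).
In the control groups Nfil3 averaged 41.7 ± 15.1 CPM in Irf1 floxed libraries and 141 ± 152 CPM in Ikbkb floxed libraries (SD, n = 4 each), a log2 fold change of -1.76 ± 0.57 (SE) with an adjusted p of 0.0529 by edgeR. Id2 had 193 ± 71.1 CPM in Irf1 floxed libraries and 489 ± 443 CPM in Ikbkb floxed libraries, a log2 fold change of -1.34 ± 0.55 with an adjusted p of 0.122 by edgeR. All 6 genes were lower in Irf1 floxed libraries and none was called, against 12.6% of all genes, of which 5.84% were called lower. By DESeq2 Nfil3 and Id2 were both called (adjusted p = 0.00821 and 0.0457), with 19.8% of all genes, and by limma voom neither was, with 25.7% of all genes. The means of Ikbkb floxed libraries lean on replicate 3: without it and Ikbkb-deleted replicate 1 the log2 fold change of Nfil3 was -0.68 (adjusted p = 0.234 by edgeR) and that of Irf8 0.08, against -1.14 with them, in a fit that called 13.9% of all genes.
The deleted groups were set against each other after Nfil3 had been seen to differ. Nfil3 averaged 35.95 ± 8.73 CPM in Irf1-deleted libraries and 110 ± 41.2 CPM in Ikbkb-deleted libraries, with a log2 fold change of -1.61 ± 0.56. It was lower in 4 of 4 Irf1-deleted libraries with no overlap, a separation that 17.9% of all genes showed in one direction or the other, with an exact permutation p of 0.0286, the smallest that 4 against 4 can give, and an adjusted p of 0.0851 by edgeR. None of the 6 genes was called here, against 8.58% of all genes. DESeq2 and limma voom called Nfil3 (adjusted p = 0.0226 and 0.0230), with 15.5% and 18.6% of all genes, and so did edgeR without the 2 high libraries (log2 fold change -1.33, adjusted p = 0.0374, with 10.1% of all genes), without Ikbkb floxed replicate 3 alone (0.0165) and without Ikbkb floxed replicate 4 alone (0.0449).
At an equal cDC1 marker score, 1 of the 6 genes, Id2, was called between the sets, a share near that of all genes. Its log2 fold change was -0.76 ± 0.19 in Irf1 floxed over Ikbkb floxed libraries (adjusted p = 0.0143 by edgeR) and -0.69 ± 0.19 in Irf1-deleted over Ikbkb-deleted libraries (adjusted p = 0.0282 by edgeR), in fits that called 16.2% and 13.2% of all genes. Nfil3 had -1.12 ± 0.49 and -1.21 ± 0.47 in those fits, with adjusted p-values of 0.132 and 0.103 by edgeR. With the T and NK marker score instead, Id2 had -0.45 and -0.64 (adjusted p = 0.655 and 0.473 by edgeR), and none of the 6 genes was called, against 10.9% and 7.01% of all genes. Without the 2 high libraries Id2 had -0.48 and -0.64 (adjusted p = 0.413 and 0.283 by edgeR).
Markers of several other cell types moved with the sets. The fibroblast marker sum was 17563 ± 3654 CPM in Irf1-deleted against 8370 ± 2633 CPM in Ikbkb-deleted libraries and 21735 ± 8516 CPM in Irf1 floxed against 9455 ± 171 CPM in Ikbkb floxed libraries. The 7 neutrophil markers summed to 667 ± 273 CPM in Irf1-deleted against 233 ± 65.0 CPM in Ikbkb-deleted libraries, and to 745 ± 220 CPM in Irf1 floxed against 253 ± 74.8 CPM in Ikbkb floxed libraries. The 8 endothelial markers summed to 120 ± 36.4 CPM in Irf1-deleted against 46.9 ± 13.1 CPM in Ikbkb-deleted libraries, and to 112 ± 11.9 CPM in Irf1 floxed against 49.9 ± 30.8 CPM in Ikbkb floxed libraries. The T and NK markers summed to 122 ± 76.1 CPM in Irf1-deleted against 323 ± 149 CPM in Ikbkb-deleted libraries, and to 291 ± 320 CPM in Irf1 floxed against 762 ± 809 CPM in Ikbkb floxed libraries. Mature dendritic cell markers summed to 1152 ± 548 CPM in Irf1-deleted against 3529 ± 2227 CPM in Ikbkb-deleted libraries, and to 1226 ± 336 CPM in Irf1 floxed against 4572 ± 4366 CPM in Ikbkb floxed libraries. The part of the fibroblast, neutrophil, endothelial and mature dendritic cell markers in the difference of Nfil3 and Id2 was not tested.

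A list of 43 related factors and partners was read beside the 6 genes, and all 43 passed the filter. After deletion of Ikbkb 0 of 43 were called, with a median log2 fold change of -0.35, beside -0.02 over all genes. Of the 43 fold changes 35 were below 0 and 8 above, where 47.8% of all genes were above 0. After deletion of Irf1 0 of 43 were called, with a median of -0.13, beside -0.02 over all genes. There 30 were below 0 and 13 above, where 48.2% of all genes were above 0. The 43 genes share the same libraries, so their directions are not independent, and these counts were not tested. At an unadjusted p under 0.05 there were 3 of 43 after Ikbkb deletion, against 4.79% of all genes, and 0 after Irf1 deletion, against 2.61% of all genes.
The smallest p-values after Ikbkb deletion were those of Gfi1, a repressor gene with at most 3.24 CPM in any library, of Prdm1, which encodes the repressor BLIMP1 (10.98 ± 6.397 CPM in Ikbkb-deleted and 24.8 ± 8.68 CPM in Ikbkb floxed libraries, adjusted p = 0.973 by edgeR), of Cebpa, a myeloid factor gene (14.3 ± 2.66 against 20.02 ± 2.85 CPM, adjusted p = 0.988 by edgeR), and of Irf7, an interferon regulatory factor gene (188 ± 109 against 411 ± 418 CPM, adjusted p = 1 by edgeR). After Irf1 deletion they were those of Prdm1 (30.9 ± 6.79 CPM in Irf1-deleted and 49.5 ± 10.9 CPM in Irf1 floxed libraries, with no overlap), Jun, Batf2 and Id1, each with an adjusted p of 1 by edgeR. The list's most abundant genes were Fos, Jun, Id3 and Junb, with means of 1325, 969, 713 and 555.4 CPM over the 16 libraries. Jun and Junb encode possible partners of BATF3, and Id3 a relative of ID2. Jun averaged 854 ± 101 CPM in Ikbkb-deleted against 1036 ± 224 CPM in Ikbkb floxed libraries, and 896 ± 199 CPM in Irf1-deleted against 1091 ± 208 CPM in Irf1 floxed libraries.
Between the control groups 5 of 43 were higher and 3 lower in Irf1 floxed libraries at an adjusted p under 0.05 by edgeR, where 6.74% of all genes were higher and 5.84% lower. Among those higher were Runx1, Zeb1, Tcf4 and Tcf12, and those lower were the AP-1 genes Junb and Fos and the nuclear receptor gene Nr4a3. Tcf4 and Tcf12 encode E proteins, the targets of ID2, and Tcf4 is also a lineage factor of plasmacytoid dendritic cells. Tcf4 was at 367 ± 59.3 CPM in Irf1 floxed and 147 ± 28.3 CPM in Ikbkb floxed libraries, a log2 fold change of 1.32 ± 0.24 with an adjusted p of 0.00669 by edgeR. Between the deleted groups 7 of 43 were higher in Irf1-deleted libraries, namely Runx1, Cebpa, Zeb1, Tcf4, Tcf3, Tcf12 and Prdm1, and Fos was lower, where 5.04% of all genes were higher and 3.54% lower. All 3 E protein genes of the list, Tcf3, Tcf4 and Tcf12, were among those higher there, Tcf4 with a log2 fold change of 1.54 ± 0.25 (adjusted p = 0.00795 by edgeR). Fibroblasts also express E proteins and Zeb1, and the fibroblast markers given above were higher in the same libraries. Their part in these differences was not tested.

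Genes most like each of the 6 were taken by Pearson's r of log2 CPM over the 16 libraries among 9474 genes whose mean log2 CPM was 3 or more. For Irf8 they were Ckb, Rnase6, Plbd1 and Naaa, each with an r of 0.98, and the MHC class II gene H2-Eb1 with 0.97. Naaa is also in the cDC1 marker list. For Batf3 they were the genes of MHC class II presentation H2-Eb1, H2-Ab1, H2-DMb1 and Cd74 at 0.96 to 0.97 and the chemokine receptor gene Cxcr3 at 0.96. Those of Id2 were Crip1, Napsa, Rogdi, Tbc1d4 and Cst3, each at 0.98.
Zbtb46 was most like Coro2a at 0.95, Tbc1d8, Irf8 and P2ry14 at 0.94 and Adam8 at 0.93, Irf8 being the member of the 6 that reached another's list. Nfil3 was most like Pmaip1 (0.94), an apoptosis gene, Mcl1 (0.93), an apoptosis inhibitor gene, Coq10b (0.93), Gpr183 (0.93), a chemotactic receptor gene, and Btg1 (0.92). Bcl6 had the lowest values, with Dpp4 at 0.90, Rab11fip1, Htr7 and Plekho2 at 0.88 and Ifi205 at 0.87. These values describe the libraries, which share the 2 that stand high.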

How the data were processed

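RNA of 16 libraries was measured. The deposited table holds unnormalized counts for each Ensembl gene. HTSeq 0.6.1p1, STAR 2.5.3a, cutadapt 1.10 and bcl2fastq 2.17.1.14 are named in the submitters' processing notes, as is build mm10. Neither the strand setting nor the annotation release is stated (not given in the sources used here). Reads of the 6 genes could be shared with other genes to a negligible extent: an opposite-strand gene overlaps Bcl6 by 21 exon bases and held 1 count in all libraries. Coordinates and exon lengths are from GENCODE M21, which matched 32684 of 32697 identifiers to a symbol, and promoter windows are from RefSeq, which matched all 6 genes.

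Counts were scaled by TMM, filtered by filterByExpr (minimum count 10, minimum total 15; 16040 genes) and fitted over all 16 libraries with a mean per group by the quasi-likelihood test of edgeR 4.0.16 in R 4.3.3, with a gene called where its p, adjusted by Benjamini-Hochberg, was under 0.05. Log2 CPM used a prior count of 2. Correlations used 100000 permutations over 16 libraries and exact enumeration within sets of 8, and groups of 4 were compared over all 70 labellings, two-sided. Other settings were RLE and upper-quartile scaling, no filter, 5 CPM in 4 libraries, DESeq2 1.42.0, limma voom 3.58.1, a prior count of 0.5, marker scores as covariates, each set alone and libraries left out. The fit was tested on simulated data. All 6 genes are named, and of 43 related factors those called, the 4 most abundant and the 4 with the smallest p per deletion, except 1 called gene that is not reported here. Replicate numbers follow sample order. The genes, lists and comparisons were chosen with earlier results of these data known, and that of the deleted groups after seeing Nfil3. Reads lack molecular identifiers, so a count's own error leaves out amplification and sampling of cells.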

Additional observations from a re-analysis of the deposited data

Results flagged for a closer look

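In 28 checks of a group of 4 libraries for a value standing apart from the other 3, 6 passed the limit. Chance flags about 1 in 20 groups where values follow a normal distribution. The checks used CPM and not its log, so this rate may not hold here, and the number flagged was not compared with chance. The limit was the 95% critical value of Dixon's test on the gap to the nearest library as a share of the group's range. In Ikbkb floxed libraries, replicate 3 stood apart for Irf8 at 2511 CPM, for Batf3 at 57.55 CPM, for Id2 at 1148 CPM and for the summed cDC1 markers at 5627 CPM. In Ikbkb-deleted libraries, replicate 1 stood apart for Zbtb46 at 156.4 CPM, just past the limit, and for the summed cDC1 markers at 6661 CPM. The markers and genes flagged in a library are not independent, since they come from the same RNA. Both libraries are left out together in the alternatives given in the report. No library of the Irf1 set stood apart in these checks.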

How the results depend on the processing

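Of 762 log2 fold changes of the 6 genes under other settings, 659 kept both direction and side of the threshold, 92 turned direction and 11 newly passed the threshold. None of the 312 values for a single deletion passed it. The cause of the turns was not tested. The lowest count of any of the 6 genes in a library was 60. No paired analysis was possible because the genotype label gives no replicate numbers and the numbers used here follow sample order.

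The number of the 6 genes called between the control groups was 0, against 1 with a filter of 5 CPM, 2 with DESeq2 and 1 with the cDC1 marker score. Of all genes 12.6% were called there, and 20.1%, 19.8% and 16.2% with these settings. Between the deleted groups the number was 0, against 1 with DESeq2, 1 with limma voom, 1 with the cDC1 marker score and 1 without the 2 high libraries, Ikbkb-deleted replicate 1 and Ikbkb floxed replicate 3. Of all genes 8.58% were called there, and 15.5%, 18.6%, 13.2% and 10.1% with these settings. Over the 4 groups the number was 1, against 2 with DESeq2, 0 with the T and NK score and 0 without the 2 high libraries. Of all genes 14.1% were called there, and 23.3%, 10.1% and 15.3% with these settings. Leaving out each library in turn gave 0 to 1 in each of these comparisons, and 0 for both deletions and their difference. The share of all genes called in those fits is not given here. Correlated pairs numbered 15, against 5 in the Irf1 set alone, 8 without the 2 high libraries and 10 to 15 with each library left out, 10 being the count without Ikbkb floxed replicate 3. Correlated genes and marker sums numbered 27, against 12 in the Ikbkb set alone, 11 in the Irf1 set alone, 12 without the 2 high libraries and 15 to 31 with each library left out. Counts of 18 or fewer came without Irf1-deleted replicate 2 (15), Ikbkb floxed replicate 3 (16) and Irf1 floxed replicates 1 (16) and 3 (18).

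The following log2 fold changes turned direction. With RLE scaling and with DESeq2, Irf8 was -0.010 in the Ikbkb deletion. With limma voom, which moved the median of all genes between the control groups by 0.12, values in the Ikbkb deletion were 0.27 for Batf3, 0.32 for Id2, 0.13 for Zbtb46 and 0.52 for Nfil3. In the Irf1 deletion they were -0.22 for Zbtb46 and 0.041 for Nfil3, in the difference of both -0.47 for Irf8, -0.20 for Id2, -0.36 for Zbtb46 and -0.48 for Nfil3, and in the control groups 0.50 for Bcl6. With the cDC1 marker score, Irf8 was -0.16 in the Ikbkb deletion. Irf8 was -0.16, Id2 -0.16 and Zbtb46 -0.42 in the Irf1 deletion, Irf8 -0.0059 and Nfil3 -0.094 in the difference, Bcl6 0.32 in the control groups and Batf3 0.041 in the deleted groups. With the T and NK score the Ikbkb deletion gave 0.66 for Batf3, 0.51 for Id2, 0.47 for Zbtb46 and 0.20 for Nfil3, and the Irf1 deletion 0.026 for Nfil3. The difference gave -0.49 for Irf8, -0.19 for Id2, -0.25 for Zbtb46 and -0.17 for Nfil3, the control groups 0.089 for Irf8 and 0.56 for Bcl6, and the deleted groups 0.23 for Batf3. Without the 2 high libraries the Ikbkb deletion gave 0.11 for Batf3, 0.20 for Id2 and 0.44 for Nfil3, and the difference -0.19 for Irf8, -0.16 for Id2 and -0.65 for Nfil3. The control groups then gave 0.080 for Irf8, 0.019 for Batf3 and 0.60 for Bcl6, with the median of all genes at 0.11, and the deleted groups 0.12 for Batf3.

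With each library left out in turn, log2 fold changes that turned in at least 1 fit ran, in the Ikbkb deletion, -0.88 to 1.23 for Irf8, -0.99 to 0.85 for Batf3, -0.67 to 0.77 for Id2, -1.21 to 0.72 for Zbtb46, -0.71 to 0.72 for Nfil3 and -0.13 to 1.12 for Bcl6. In the Irf1 deletion they ran -0.37 to 0.41 for Irf8, -0.12 to 0.81 for Batf3, -0.26 to 0.27 for Id2, -0.58 to 0.42 for Zbtb46, -0.40 to 0.0072 for Nfil3 and -0.44 to 0.058 for Bcl6. In the difference they ran -1.08 to 1.04 for Irf8, -0.64 to 1.21 for Batf3, -0.72 to 0.71 for Id2, -0.67 to 1.26 for Zbtb46 and -0.93 to 0.50 for Nfil3. In the control groups they ran -1.45 to 0.080 for Irf8, -1.69 to 0.019 for Batf3 and -0.65 to 0.60 for Bcl6, and in the deleted groups -0.91 to 0.12 for Batf3. Nfil3 and Id2 were lower in the Irf1 set under every setting run, by log2 fold changes of -2.11 to -0.68 for Nfil3 and -1.60 to -0.48 for Id2 between the control groups with each library left out.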
